A study of Mus musculus with 24 samples.

Results

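Cyclosporin A was given by itself to 6 mouse small cell lung cancer lines in which p53 had not been restored, and its transcriptional response is described here. The members are the Control and the Control + CsA library of each line, 12 of the 24 libraries in the series, and they form 6 pairs by cell line. The other 12 libraries are the Restored and Restored + CsA cells of the same lines. All cells were collected at 72 h for mRNA sequencing, and CsA stands for cyclosporin A throughout. Every line came from an individual tumor of mice carrying Rb1 fl/fl, Trp53 XTR/XTR, Rbl2 fl/fl and the Rosa26 FlpO-ER allele, in which an adenovirus with Cre under the CMV promoter had removed Rb1 and Rbl2 and trapped Trp53. Control cells, with or without CsA, therefore lack Rb1 and Rbl2 function, hold the trapped Trp53 allele with its EGFP reporter and received the vehicle in place of 4-hydroxytamoxifen. The CMV promoter does not limit Cre to 1 lung cell type, and each line gave 1 library per treatment. Lines 4711-1, 4711-18 and 4716-11 are labelled Type D and lines 4711-11, 4716-10 and 4716-14 Type V, types that the study set by how cells respond once p53 is restored.

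Cyclosporin A binds cyclophilins, enzymes that turn the peptide bond before proline and so help proteins to fold. The complex of the drug with cyclophilin A blocks the phosphatase calcineurin and with it NFAT, the basis of its use in immunosuppression, and cyclophilin B and cyclophilin C are made for the secretory pathway. When folding in the endoplasmic reticulum (ER) falls behind, the sensors of the unfolded protein response raise chaperones and translocation machinery through XBP1 and ATF6, and amino acid and tRNA charging genes through translation of ATF4, which other stresses can also start.

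Promoters of 7 genes are shown because they carry the elements of these branches and belong to genes described below. Capitals mark matches on either strand to the ER stress element (CCAAT, 9 bases of any kind, CCACG), to its second form ERSE-II (ATTGG, 1 base of any kind, CCACG), to the UPRE of XBP1 (TGACGTGG) or to the ATF4 element (TGATGNAA). Both ER stress elements end in the same CCACG. The windows are those of RefSeq on GRCm38.p6, from 250 bases before to 50 after the start of the gene, each written along the strand of its gene. Dnajc3 and Hspa5 hold the ER stress element, Herpud1 holds ERSE-II and, further upstream, the ATF4 element, Txndc11 holds the UPRE, and Asns, Pycr1 and Chac1 hold the ATF4 element.
Dnajc3 (chr14:118937682-118937981, plus strand): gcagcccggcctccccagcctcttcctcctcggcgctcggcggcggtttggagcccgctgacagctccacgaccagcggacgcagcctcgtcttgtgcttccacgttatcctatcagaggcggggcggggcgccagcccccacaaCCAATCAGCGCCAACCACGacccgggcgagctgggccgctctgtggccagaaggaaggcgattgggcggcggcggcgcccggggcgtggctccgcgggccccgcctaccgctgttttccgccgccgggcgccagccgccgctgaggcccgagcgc
Hspa5 (chr2:34771840-34772139, plus strand): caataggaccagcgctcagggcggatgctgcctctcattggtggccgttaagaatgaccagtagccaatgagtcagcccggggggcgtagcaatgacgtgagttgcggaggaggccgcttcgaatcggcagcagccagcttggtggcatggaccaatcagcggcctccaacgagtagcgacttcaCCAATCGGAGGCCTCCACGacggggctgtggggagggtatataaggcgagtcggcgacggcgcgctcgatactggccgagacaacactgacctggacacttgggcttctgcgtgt
Herpud1 (chr8:94386179-94386478, plus strand): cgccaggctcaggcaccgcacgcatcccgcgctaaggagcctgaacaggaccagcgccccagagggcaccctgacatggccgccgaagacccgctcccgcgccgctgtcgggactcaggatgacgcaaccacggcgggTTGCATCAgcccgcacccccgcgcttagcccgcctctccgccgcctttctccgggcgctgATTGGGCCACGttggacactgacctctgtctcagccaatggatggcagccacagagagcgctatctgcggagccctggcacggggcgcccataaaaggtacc
Txndc11 (chr16:11134483-11134782, minus strand): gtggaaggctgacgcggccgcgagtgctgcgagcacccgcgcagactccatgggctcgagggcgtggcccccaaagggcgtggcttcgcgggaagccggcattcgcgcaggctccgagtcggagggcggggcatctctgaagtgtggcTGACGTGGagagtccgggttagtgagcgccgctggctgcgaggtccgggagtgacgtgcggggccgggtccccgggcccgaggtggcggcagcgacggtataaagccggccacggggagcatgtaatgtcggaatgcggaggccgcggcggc
Asns (chr6:7693160-7693459, minus strand): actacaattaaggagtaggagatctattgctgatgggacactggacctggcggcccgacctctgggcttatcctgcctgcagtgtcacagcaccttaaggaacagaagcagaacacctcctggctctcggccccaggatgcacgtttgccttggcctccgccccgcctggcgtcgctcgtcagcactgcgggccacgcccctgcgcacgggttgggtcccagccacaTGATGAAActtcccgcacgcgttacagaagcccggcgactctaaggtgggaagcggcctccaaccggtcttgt
Pycr1 (chr11:120643699-120643998, minus strand): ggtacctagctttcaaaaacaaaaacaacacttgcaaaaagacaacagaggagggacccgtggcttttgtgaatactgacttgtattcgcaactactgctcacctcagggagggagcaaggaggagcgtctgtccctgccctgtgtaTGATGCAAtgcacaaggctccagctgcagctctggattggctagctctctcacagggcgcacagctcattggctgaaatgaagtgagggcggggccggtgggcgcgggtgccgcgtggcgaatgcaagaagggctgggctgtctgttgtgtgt
Chac1 (chr2:119350992-119351291, plus strand): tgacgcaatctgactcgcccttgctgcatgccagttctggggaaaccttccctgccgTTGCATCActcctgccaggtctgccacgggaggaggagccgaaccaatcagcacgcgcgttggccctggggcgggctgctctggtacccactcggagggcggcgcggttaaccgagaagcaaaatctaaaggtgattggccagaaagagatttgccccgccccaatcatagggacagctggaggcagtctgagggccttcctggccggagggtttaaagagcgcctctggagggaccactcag

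Among the 27018 RefSeq genes with a promoter, 0.137% held the ER stress element, 0.0444% ERSE-II, 0.714% the UPRE and 4.51% the ATF4 element. Of the 39 ER chaperone and ERAD genes tested (ERAD is the disposal of misfolded ER proteins), 31 had a promoter in the table, and 8 of them (25.8%) held the ER stress element. Of 37 ATF4 response genes with a promoter, 13 (35.1%) held the ATF4 element. In the translocon and signal peptidase list, 0 of 16 promoters held any of the 4. A match is a description of these letters only.

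Levels are TPM as deposited, a measure of transcript abundance corrected for gene length and scaled to the same total in each library. A difference is CsA minus Control on the log2(TPM + 1) scale, where the added 1 understates changes of low genes, and a gene passed at a Benjamini-Hochberg adjusted p under 0.05 in limma with cell line as a block (n = 6 pairs). Over all 6 lines 301 genes rose (2.29% of the 13125 tested) and 348 fell (2.65%), and 3030 genes (23.1%) had an unadjusted p under 0.05. Most of the differences were small. Of the 649 genes that passed, 558 differed by under 0.5 log2, and 8 (0.061%) passed the threshold of the study, which also asks for 1 log2. Those 8 were Aldh1l2, Atf5, Fgf21, Gpr141, C1s1 and Serpinf1, which rose, and Ccbe1 and Snora15, which fell, and without 4716-10 there were 13. Genes were tested if they reached 1 TPM in at least 3 of the 12 libraries, and 8 of the 649 did so in 1 group only, 3 through CsA libraries and 5 through Control libraries. Serpinf1, with 1 Control and 6 CsA libraries at that level, is among the 3, so its call is no support for a difference. Scaling TPM further by median ratios turned the balance of calls to 383 higher and 245 lower. The number of genes that passed depended on every line: it was 373 without 4711-1, 210 without 4711-11, 185 without 4711-18, 387 without 4716-10, 409 without 4716-11 and 297 without 4716-14. Of the 649 genes, 619 moved the same way in 6 of 6 lines, where 5.75% of all genes tested rose in all 6 and 8.98% fell in all 6.

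**Figure D1:**
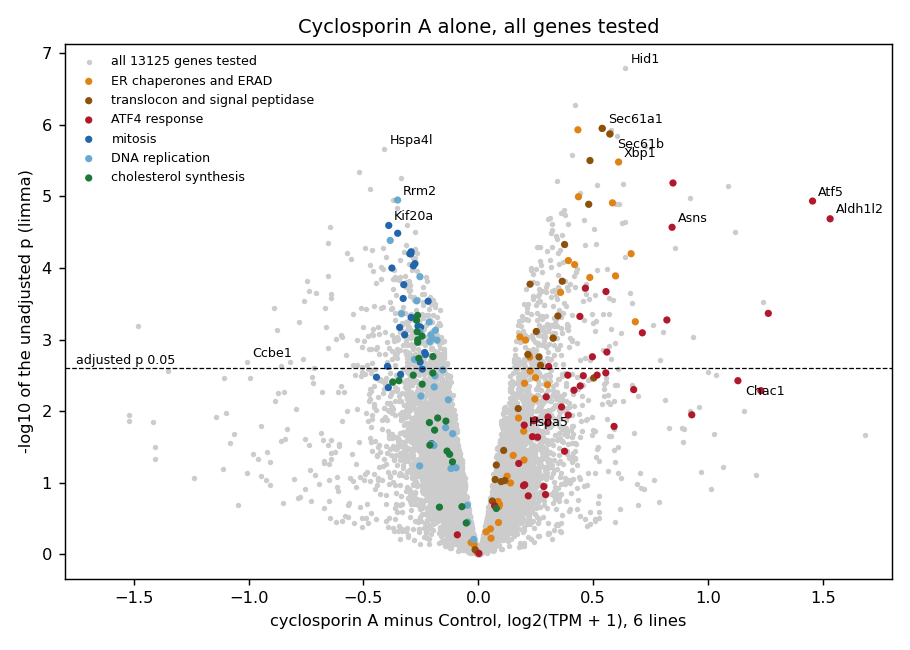
Each point is 1 of the 13125 genes tested, with its CsA minus Control difference in log2(TPM + 1) over 6 lines on the x axis and -log10 of the unadjusted limma p on the y axis. Members of 6 lists are coloured and the dashed line marks an adjusted p of 0.05, above which lie 18 ER chaperone and ERAD genes and 13 ATF4 response genes on the right and 20 mitosis genes on the left.

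The libraries were checked against their labels before the gene groups were read. The lines are labelled small cell lung cancer, yet the neuroendocrine markers Chga and Neurod1 were at 0 in all 12 libraries and Syp did not exceed 1.41 TPM. Keratins were high in most lines (Krt18 median 1780 TPM in Control), and the summed level of the 20 neuroendocrine and epithelial genes was 1133 to 17157 TPM in Control and 1082 to 14782 TPM in CsA libraries. Immune markers summed to 8.21 to 11.6 TPM in Control and 6.97 to 13.0 TPM with CsA, with Cd3e, Adgre1 and C1qa at 0. Endothelial markers did not sum to more than 0.854 TPM, and fibroblast markers ranged from 1.28 to 418 TPM in Control and 1.18 to 480 TPM with CsA. No fibroblast marker passed in limma (0 of 4 tested, 0 with an unadjusted p under 0.05).

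Many of the genes that pass secretory proteins into the ER rose. Line medians of the list ran from 0.04 log2 in 4716-11 to 0.33 log2 in 4716-14. Of 22 genes of the translocon, its associated TRAP complex, the signal recognition particle and signal peptidase, 13 rose and 0 fell, with a list median of 0.26 log2 against -0.02 over all genes tested. Sec61a1, the channel subunit of the translocon, stood at 363, 411 and 433 TPM (lowest, median, highest) in Control and at 535, 580 and 653 TPM with CsA. The 2 groups did not overlap, and the difference was 0.54 ± 0.05 log2 (SE, adjusted p = 0.0027 in limma). Sec61b, the small subunit, went from a median of 311 to 428 TPM, 0.57 ± 0.05 log2 (adjusted p = 0.0027). Spcs2, a subunit of signal peptidase, which trims the leader off incoming chains, went from 109, 117 and 124 TPM to 146, 161 and 193 TPM, again without overlap (0.49 ± 0.05 log2, adjusted p = 0.0036). Ssr2 of the TRAP complex rose by 0.48 log2 (adjusted p = 0.0054). Without line 4711-1, 4711-11, 4711-18 or 4716-14 the count of 13 became 8, 7, 8 or 7. The list was drawn up as a complete family after values had been seen.

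A gene whose 6 CsA libraries all lie above its 6 Control libraries was rare, at 6 of 13125 (0.0457%), and 3 genes (0.0229%) showed the reverse. The 6 were Sec61a1, Spcs2, Ostc, Xbp1, Os9 and the gene model Gm9828. Os9, named after its values were seen, is a lectin that hands misfolded glycoproteins to ERAD and went from 57.3 to 76.7 TPM in Control to 79.3 to 95.1 TPM with CsA (0.35 log2, adjusted p = 0.014). The 3 in the other direction were Tpx2, Lsm2 and Cep295nl.

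Of 39 ER chaperone and ERAD genes tested of 40 listed, 18 rose and 0 fell, with a median of 0.22 log2. Xbp1, the transcription factor of the unfolded protein response, held 57.1, 71.8 and 83.6 TPM in Control and 85.4, 104 and 158 TPM with CsA. All 6 CsA libraries exceeded all Control libraries, a 1.53-fold difference (0.61 ± 0.06 log2, adjusted p = 0.0036). A total per gene does not separate spliced from unspliced Xbp1 RNA. Edem2, which trims mannose from glycoproteins bound for ERAD, rose from a median of 58.5 to 80.4 TPM (0.43 ± 0.04 log2, adjusted p = 0.0027). Some list members outside the naming rule were chosen after their values were seen. Dnajb9, an ER J-domain protein, rose by 0.66 log2, and P4hb, a protein disulfide isomerase, by 0.44 log2. Fkbp11, an ER prolyl isomerase of the FK506-binding family rather than a cyclophilin, rose by 0.68 log2 (adjusted p = 0.026). Herpud1, an ERAD membrane protein, went from 77.3, 196 and 313 TPM to 88.1, 288 and 520 TPM, groups that overlapped (0.48 ± 0.08 log2, adjusted p = 0.014, higher in 6 of 6 lines). Txndc11, a thioredoxin-domain protein of the ER, went from 24.2, 26.8 and 40.6 TPM to 34.4, 41.3 and 65.5 TPM, also with overlap (0.58 ± 0.07 log2, adjusted p = 0.0054).

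Values of 3 further chaperones of the list, Hspa5 by the naming rule and Hsp90b1 and Calr after their values were seen, are given next. Hspa5, the ER chaperone BiP, held 661, 766 and 1166 TPM in Control and 600, 939 and 1427 TPM with CsA, groups that overlapped, with a difference of 0.20 ± 0.07 log2 that did not pass (adjusted p = 0.131, higher in 5 of 6 lines). Hsp90b1 differed by 0.09 log2 and Calr by -0.01 log2, and neither passed (adjusted p = 0.46 and 0.97). Of the 8 tested members with an ER stress element, 3 rose (Dnajc3, Pdia6 and Syvn1), with a median of 0.20 log2 and a range of -0.02 to 0.36 log2. The 23 members with a promoter but without the element had a median of 0.18 log2 and a range of -0.03 to 0.68 log2. Without line 4711-18, 11 of the 39 rose instead of 18. Line 4716-11 had the smallest ER chaperone median of the 6 lines, 0.06 log2, where the other 5 lay between 0.17 and 0.34 log2.

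Later steps of the secretory route rose in part. In N-glycosylation 8 of 24 genes rose and 0 fell (median 0.07 log2), and without line 4711-18 it was 5. Alg2, which adds mannose to the lipid-linked sugar, went from a median of 22.4 to 34.9 TPM (0.60 ± 0.06 log2, adjusted p = 0.0027), and Ostc, a subunit of the oligosaccharyltransferase, from 219 to 316 TPM (0.52 ± 0.06 log2, adjusted p = 0.0050) with no overlap of groups. In ER-Golgi transport 8 of 33 tested genes rose and 0 fell (median 0.07 log2), which became 3 without 4711-11, 3 without 4711-18 and 4 without 4716-14. Of those 8, 5 were TMED cargo receptors, led by Tmed3 (median 73.6 to 112 TPM, 0.58 log2, adjusted p = 0.0027). Both lists were drawn up after values had been seen. Of 29 ER-Golgi genes with a promoter, 6 (20.7%) held the UPRE, and 1 of the 6 rose. Their median was -0.008 log2, and that of the 23 without the element was 0.084 log2. Outside all lists and chosen for their small p, Hid1 (0.64 log2), Snd1 (0.42 log2), Nucb2 (0.72 log2) and Serp1 (0.63 log2) rose, with adjusted p of 0.0021, 0.0027, 0.0032 and 0.0050. Serp1 is a small protein of the translocon that is known to be raised by ER stress.

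**Figure D2:**
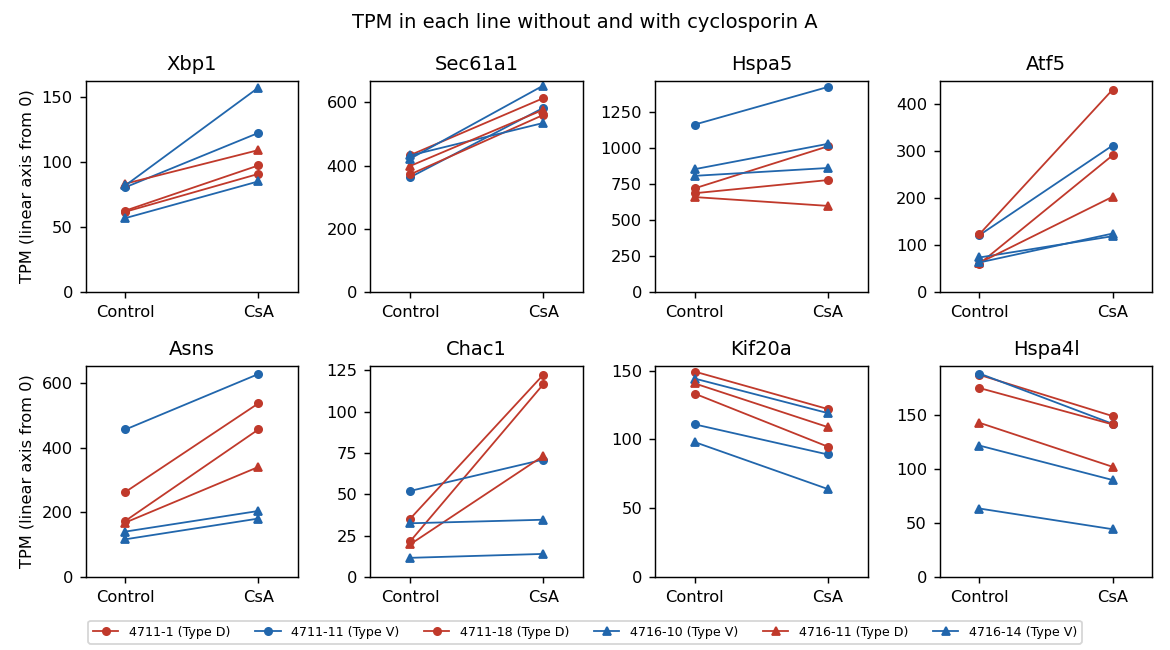
TPM of 8 genes in the Control and CsA library of each line, on linear axes from 0, with red for Type D, blue for Type V, circles for 4711 lines and triangles for 4716 lines. Every line rose for Xbp1, Sec61a1, Atf5, Asns and Chac1 and fell for Kif20a and Hspa4l, while Hspa5 fell in line 4716-11, and the Chac1 lines split by type.

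The RNA of the drug's own binding proteins was measured next. Of 16 cyclophilin genes tested, Ppib and Ppic rose, 0 fell, and the list median was -0.08 log2, where 2.29% of all genes tested rose. Ppib, the ER cyclophilin B, held 157, 189 and 202 TPM in Control and 180, 210 and 235 TPM with CsA, a difference of 0.19 ± 0.04 log2 (adjusted p = 0.024, higher in 6 of 6 lines). Ppic, cyclophilin C, differed by 0.25 ± 0.05 log2 (adjusted p = 0.020). Both calls were lost without 4711-11, 4711-18, 4716-10 or 4716-14. Ppia, the cytosolic and most abundant cyclophilin gene here, held a median of 905 TPM in Control and 862 TPM with CsA (-0.07 log2, adjusted p = 0.222). Ppif, the mitochondrial cyclophilin D, differed by 0.06 log2 and Ppie by -0.03 log2, and neither passed (adjusted p = 0.59 and 0.81).

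In the calcineurin and NFAT list 0 of 17 genes passed in limma and 3 had an unadjusted p under 0.05. Rcan1 is an inhibitor of calcineurin whose transcription NFAT drives. It held 17.3 to 29.9 TPM in Control and 16.5 to 32.8 TPM with CsA (0.06 log2, adjusted p = 0.68). A total per gene does not separate the transcripts of Rcan1. Among activity-responsive immediate early genes 0 of 17 passed, 7 had an unadjusted p under 0.05 and the median was -0.16 log2. The mitochondrial permeability transition list, to which Ppif belongs, had 0 of 19 genes passing and 0 with an unadjusted p under 0.05.

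The ATF4 response list held the 3 largest rises, Aldh1l2, Atf5 and Fgf21. Of 44 genes, 13 rose, 0 fell and 43 had a positive difference, with a list median of 0.40 log2, and 10 of the 44 are also cytosolic aminoacyl-tRNA synthetases. Aldh1l2, a mitochondrial folate enzyme, held 3.27, 9.52 and 20.6 TPM in Control and 8.11, 25.4 and 79.4 TPM with CsA. The groups overlapped across lines, but every line rose, and the difference of 1.53 ± 0.20 log2 was the largest of all rises that passed (adjusted p = 0.0071). Atf5, a transcription factor of mitochondrial and amino acid stress, went from 60.5, 68.5 and 123 TPM to 119, 247 and 430 TPM, 1.45 ± 0.17 log2 (adjusted p = 0.0054). Asns, which makes asparagine, went from a median of 171 to 399 TPM (0.84 ± 0.11 log2, adjusted p = 0.0076). Pycr1, of proline synthesis, went from a median of 15.9 to 35.5 TPM (0.85 ± 0.09 log2, adjusted p = 0.0050).

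Gpt2, an alanine aminotransferase, rose by 0.82 log2, Mthfd2, a mitochondrial folate enzyme, by 0.56 log2, and Fgf21, a secreted stress hormone at a median of 1.48 TPM in Control, by 1.26 log2. All 3 calls were lost without 4711-11, 4711-18 or 4716-11, and that of Mthfd2 also without 4711-1. Pck2, a mitochondrial enzyme outside the list, rose by 0.79 log2, a call kept only without 4716-14. Atf4 itself, named after its values were seen, differed by 0.39 log2 (adjusted p = 0.055) and Ddit3, the transcription factor CHOP, by 0.38 log2 (adjusted p = 0.184, higher in 4 of 6 lines). The count of 13 fell to 6 without 4711-11, 4 without 4711-18 and 7 without 4716-11, while Aldh1l2, Atf5, Asns and Pycr1 kept an adjusted p under 0.05 without any 1 line. The 13 members with an ATF4 element had a median of 0.50 log2 and the 24 with a promoter but no element a median of 0.37 log2. In Type D lines the order was reversed, at 0.59 log2 with and 0.66 log2 without the element. In Type V lines the medians were 0.26 and 0.09 log2.

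In these 6 lines the ATF4 response was larger in Type D than in Type V. The list difference was not tested, and a permutation test of 3 against 3 lines could not give a p under 0.1. In Type D lines the median over the 44 genes was 0.66 log2 and 29 rose, against 1.06% of all genes that rose in Type D and 0.648% that fell. In Type V lines the median was 0.13 log2 and 2 rose, Atf5 and Asns, against 0.19% of all genes that rose in Type V and 0.0229% that fell. Line medians were 0.86, 0.74 and 0.48 log2 in 4711-1, 4711-18 and 4716-11, and 0.28, 0.06 and 0.04 log2 in 4711-11, 4716-10 and 4716-14, so the types did not overlap. For 43 of the 44 genes the difference was larger in Type D. For 32 genes each Type D line exceeded each Type V line, a pattern that 5.26% of all genes tested showed. For 33 genes the unadjusted p for Type D minus Type V was under 0.05, against 6.01% of all genes. The 44 genes are 1 list measured in the same 6 lines, so these counts add no replicates.

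Chac1, an enzyme that breaks down glutathione, had the smallest p for Type D minus Type V. In Type D it went from 21.5 to 117 TPM in 4711-1, from 35.2 to 122 TPM in 4711-18 and from 19.7 to 73.2 TPM in 4716-11, 2.0 log2 over the 3 lines (adjusted p = 0.0012). In Type V it went from 52.0 to 71.0 TPM in 4711-11, from 11.6 to 13.9 TPM in 4716-10 and from 32.5 to 34.6 TPM in 4716-14, 0.26 log2 (adjusted p = 0.41). The difference between the types was 1.74 ± 0.17 log2 with an adjusted p of 0.062, so that 0 genes (0%) passed for Type D minus Type V in limma, with 789 at an unadjusted p under 0.05. Chac1 did pass there under a TPM minimum of 5 (adjusted p = 0.031), quantile normalization (0.033), median-ratio scaling (0.026) and a robust fit (0.017). It also passed without line 4711-1 (0.031), where Snord72 passed in the other direction (-1.19 log2, 0.045). Without line 4716-11, Mthfd2 (0.82 log2, 0.047), Gadd45a (1.55 log2, 0.048) and Mir7036 (-3.56 log2, 0.020) passed.

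Other ATF4 genes, of which Trib3 and Cth were chosen after their values were seen, had larger differences in Type D too. Trib3, a pseudokinase induced by stress, differed by 1.76 log2 in Type D and 0.10 log2 in Type V. Cth, which makes cysteine, differed by 2.11 and 0.34 log2, and Ddit3 by 0.80 and -0.05 log2. Of the 20 cytosolic aminoacyl-tRNA synthetases 5 rose over all lines (median 0.20 log2), 10 in Type D (median 0.42 log2) and 0 in Type V in limma (median 0.02 log2, 5 with an unadjusted p under 0.05), and the count of 5 fell to 0 without 4711-18, to 2 without 4711-11 or 4716-11 and to 3 without 4711-1 or 4716-14. Of the 17 mitochondrial ones, which are separate enzymes, 0 rose and 1, Sars2, fell (-0.30 log2, adjusted p = 0.027). That call was lost without 4711-11, 4711-18 or 4716-14. Both synthetase lists were drawn up after values had been seen. On the cytosolic list, 10 genes are also ATF4 response genes and were counted above. A Type D count also rests on 3 lines. All genes that passed in Type D numbered 51 without 4711-1, 45 without 4711-18, 123 without 4711-11, 124 without 4716-10 and 148 without 4716-14, against 224 with all lines.

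The ER genes did not divide in this way. The ER chaperone and ERAD median was 0.18 log2 in Type D and 0.29 log2 in Type V, 8 genes rose in Type D and 6 in Type V, and the difference was larger in Type D for 6 of 39, against 45.6% of all genes tested. Xbp1 differed by 0.52 log2 in Type D and 0.70 log2 in Type V (adjusted p = 0.91 for the difference) and Sec61a1 by 0.54 log2 in both. Of the 25 genes that rose in Type V, Dnajb9, Edem2, P4hb, Sec61a1, Sec61b and Xbp1 are on the ER list, Spcs2 and Ssr2 on the translocon and signal peptidase list, and Alg2, Ostc and Tmed3 on the N-glycosylation and ER-Golgi lists. The Type V counts were small, and 28 genes in all became 0 without 4711-11, 4711-18 or 4716-14 and 6 without 4716-10.

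**Figure D3:**
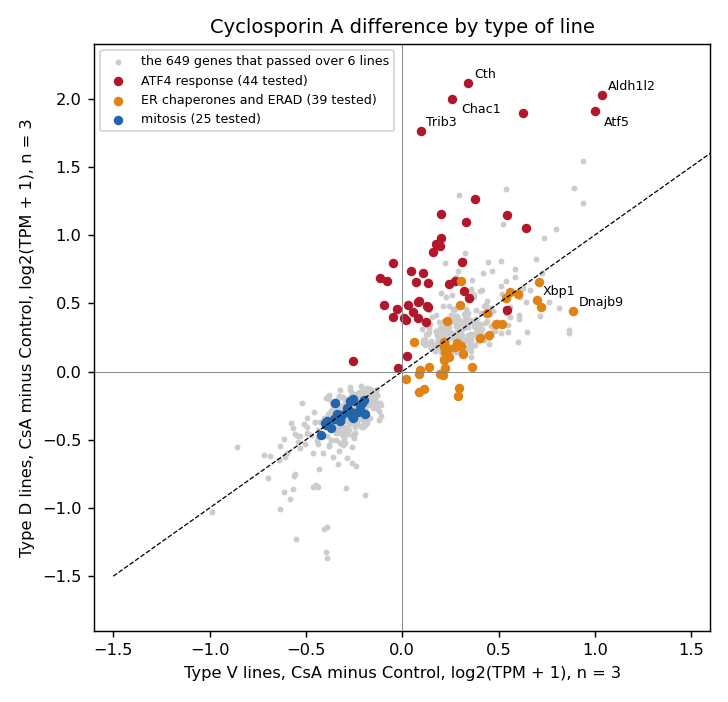
CsA minus Control in log2(TPM + 1) in the 3 Type V lines on the x axis and the 3 Type D lines on the y axis, with the 649 genes that passed over 6 lines in grey and 3 lists in colour. The dashed line marks equal differences, and 43 of the 44 ATF4 response genes lie above it while ER chaperone genes lie mostly below it and mitosis genes along it.

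Most of the mitosis genes fell. Of 25 mitosis genes 20 fell, 0 rose, and all 25 were lower with CsA in 6 of 6 lines, with a median of -0.29 log2, close to the same in Type D (-0.31 log2) and Type V (-0.29 log2). Kif20a, a kinesin of cytokinesis, went from 98.0, 137 and 149 TPM to 63.9, 102 and 122 TPM, groups that overlapped between lines although each line fell (-0.39 ± 0.05 log2, adjusted p = 0.0074). Tpx2, a spindle assembly factor named after its values were seen, went from 119, 126 and 139 TPM to 85.5, 110 and 115 TPM and did not overlap (-0.26 log2, adjusted p = 0.027). Cdk1, the kinase of mitotic entry, fell by 0.29 log2, and Bub1b of the spindle checkpoint by 0.35 log2. The count of 20 was 11 without 4711-11, 9 without 4711-18 and 11 without 4716-14.

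Of 28 DNA replication genes 13 fell, 0 rose, and all 28 differences were negative (median -0.20 log2), 18 of them in 6 of 6 lines. Rrm2, a subunit of ribonucleotide reductase, went from 118, 301 and 746 TPM to 97.0, 236 and 588 TPM (-0.35 ± 0.04 log2, adjusted p = 0.0054), Gins1 of the replicative helicase fell by 0.38 log2 and Mcm3 by 0.25 log2. Without a line the count was 3 (4711-11, 4711-18 or 4716-14), 8 (4716-10 or 4716-11) or 9 (4711-1). In bulk RNA, fewer dividing cells and less RNA of these genes per cell cannot be told apart.

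**Figure D4:**
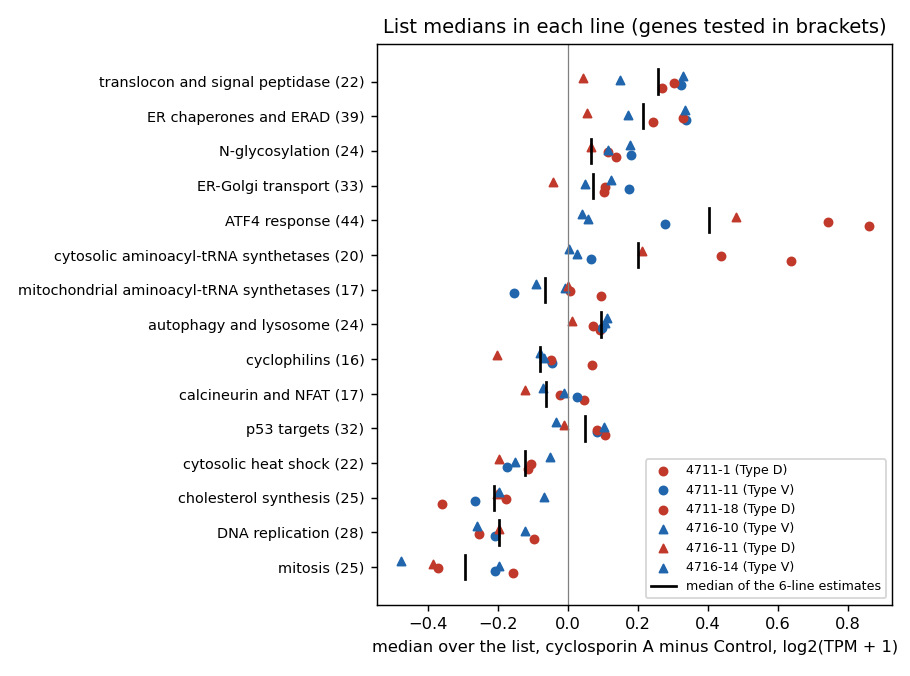
Median CsA minus Control difference in log2(TPM + 1) over each of 15 gene lists in each line, with Type D in red, Type V in blue, circles for 4711 lines, triangles for 4716 lines, and a black bar for the median of the 6-line estimates. All 6 lines lie above 0 for ER chaperones, the translocon and the ATF4 response and below 0 for mitosis, DNA replication and cholesterol synthesis, and Type D lies to the right of Type V in the ATF4 response.

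Part of the sterol and heat shock genes fell. In cholesterol synthesis 8 of 25 genes fell and 0 rose (median -0.21 log2). Nsdhl, an enzyme of its later steps, went from a median of 55.8 to 45.7 TPM (-0.26 ± 0.05 log2, adjusted p = 0.024), a call lost without 4711-1, 4711-11 or 4716-14. These calls depended on single lines, with 1, 0, 1, 6, 3 and 0 genes without 4711-1, 4711-11, 4711-18, 4716-10, 4716-11 and 4716-14, and 4 under median-ratio scaling. In fatty acid synthesis 3 of 13 fell, Elovl6, Fasn and Acly, each lost without at least 4 of the 6 lines in turn. Of 22 cytosolic heat shock genes 4 fell, 0 rose and 21 differences were negative. Hspa4l and Hsph1, both of the HSP110 family of nucleotide exchange factors, fell by 0.41 log2 (63.5, 159 and 189 TPM to 44.3, 122 and 149 TPM, adjusted p = 0.0032) and by 0.47 log2 (adjusted p = 0.0052), and Stip1 and Hspb1 fell too, Hspb1 only with all lines or without 4716-11. The heat shock median was -0.12 log2 and the ER chaperone median 0.22 log2.

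The p53 genes gave no common direction with p53 unrestored. Trp53 held 10.7, 13.7 and 14.8 TPM in Control and 10.5, 13.3 and 15.3 TPM with CsA (0.02 log2, adjusted p = 0.89). Since the trap joins the first exon to EGFP, a total for the gene does not check the allele, nor do Rb1 (-0.05 log2) and Rbl2 (-0.04 log2) totals check their deletions. Cdkn1a, the p21 gene, held a median of 81.0 TPM in Control and 88.6 TPM with CsA (0.16 log2, adjusted p = 0.129), and Mdm2 differed by 0.03 log2. Of 32 tested p53 targets 1 rose, Gdf15 (0.64 ± 0.08 log2, adjusted p = 0.0074), a secreted factor that ATF4 also induces, and 1 fell, Gtse1 (-0.33 log2), a call lost without 4711-18. The study divided p53-responsive genes into modules on Control and Restored libraries of these lines, so the lists are not independent of the Control libraries used here. Of 213 tested genes of Module 1, 11 rose and 1 fell (median 0.00 log2), and of 94 of Module 5, 2 rose and 1 fell (median -0.02 log2). Among all genes tested 2.29% rose and 2.65% fell, and the p53 target and Module 5 calls lay near those shares. Module 1 held a larger share of rises and a smaller share of falls, while 107 of its differences were positive and 106 negative.

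Some of the largest differences lay outside these groups. Gpr141, an orphan receptor, rose from a median of 1.65 to 6.29 TPM (1.24 ± 0.22 log2, adjusted p = 0.019), a call lost without 4711-11 or 4711-18. Nt5e, the ecto-enzyme CD73, rose from a median of 34.8 to 57.9 TPM (0.92 ± 0.11 log2, adjusted p = 0.0054). The complement proteases C1s1 and C1ra rose by 1.12 and 0.86 log2, although each has a close paralog in the mouse genome that may share its reads. Serpinf1, which was tested only through its CsA libraries, held 0 to 0.78 TPM in 5 of the 6 Control libraries and differed by 1.08 log2.

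Among the falls, Ccbe1 went from a median of 6.58 to 1.24 TPM (-1.01 ± 0.24 log2, adjusted p = 0.046), Pbxip1 from 34.4 to 17.5 TPM (-0.88 log2) and Dgat2, which makes triglyceride, from 18.1 to 10.7 TPM (-0.86 log2). Ccbe1 and Dgat2 lost their calls without any line other than 4716-10, and Pbxip1 without any line other than 4716-10 or 4716-14. P3h4, which takes part in collagen lysine hydroxylation, fell from a median of 64.8 to 38.9 TPM (-0.76 log2), lost without 4711-1, 4711-11, 4711-18 or 4716-11. It was the only 1 of 21 tested collagen folding genes that fell, and 0 rose. Mir21a, Snora21, Snora15 and AF357399 are short RNAs for which libraries made from mRNA give uncertain values. Of the 86 named genes that passed, 41 kept an adjusted p under 0.05 without each line in turn and 45 lost it without at least 1. Among the other lists, most of whose calls belong to those 45, 4 of 24 autophagy and lysosome genes rose (Mcoln1, Hexa, Gabarap and Map1lc3b), 4 of 26 hypoxia and glycolysis genes fell (Ankrd37, Pkm, Pgam1 and Ldha), 2 of 21 collagens fell (Col27a1 and Col6a1), Tgfbr2 rose and Tgfbi fell of 20 TGF-beta genes, Abcd4 fell of 22 ABC transporters and Cdh1 rose of 14 identity genes. Among all genes tested 2.29% rose and 2.65% fell, so 1 or 2 calls in a list of this size are no result about that list. In limma 0 of 25 NRF2 targets, 0 of 23 interferon genes and 0 of 21 cytokine and NF-kB genes passed, with 9, 5 and 6 at an unadjusted p under 0.05.

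The same drug given after p53 restoration offers other libraries of the same lines, sharing none with the Control pairs. In these 6 pairs 0 genes (0%) passed in limma, with 2147 at an unadjusted p under 0.05. Of the 649 genes of the Control pairs, 595 (91.7%) had the same sign there, against 66.3% of all genes tested. The genes that rose had medians of 0.32 log2 in Control pairs and 0.21 log2 in Restored pairs, and those that fell -0.29 and -0.19 log2. The ER chaperone median was 0.25 log2 with p53 restored, the translocon median 0.26 log2 and the ATF4 median 0.36 log2. Line medians of the ATF4 list ran from -0.19 to 0.69 log2 there, above 0 in 5 of 6 lines, where Control pairs were above 0 in all 6. Mitosis genes had a median of -0.30 log2 there, but line medians ran from -0.98 to 0.52 log2, where Control pairs ran from -0.48 to -0.16 log2.

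Single genes show both patterns. Atf5 differed by 1.09 log2 with p53 restored, Aldh1l2 by 1.48 log2 and Xbp1 by 0.53 log2. Fgf21 differed by 0.23 log2, Gdf15 by -0.08 log2 and Serpinf1 by -0.11 log2. The interaction of CsA with restoration was fitted on all 24 libraries, and 0 genes passed in limma, with 222 at an unadjusted p under 0.05. For Serpinf1 the interaction was -1.20 log2 (adjusted p = 0.9999 in limma). Because Serpinf1 was tested only through its CsA libraries, this value is no support for an interaction.

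**Figure D5:**
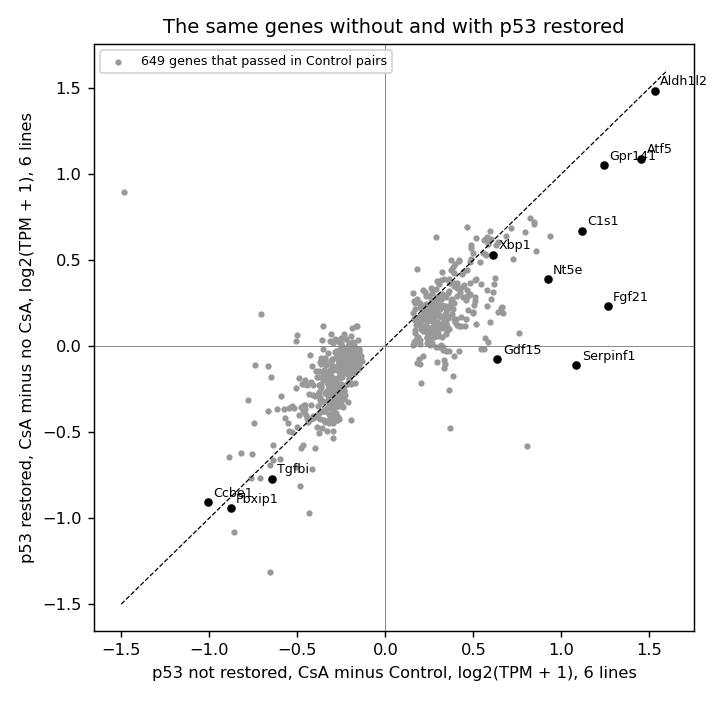
CsA differences in log2(TPM + 1) over 6 lines for the 649 genes that passed, with p53 not restored on the x axis and with p53 restored on the y axis, and a dashed line for equal differences. Of these genes 595 lie in the quadrants of equal sign, Aldh1l2 and Xbp1 lie near the line, and Serpinf1 and Gdf15 lie at about 0 on the y axis.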

How the data were processed

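RNA of mouse small cell lung cancer lines was sequenced from stranded mRNA libraries as single-end reads, and the authors deposited TPM values for 25239 genes in 24 libraries. Their methods name Kallisto and HISAT2, and mm10 and GRCm39, without saying which lies behind the TPM table, so no coordinates of the table are used. TPM sums to 1000000 per library, so absolute RNA content cannot be read, and without counts the depth is unknown. The number of genes at 1 TPM or more was 11853 to 12369 per library.

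Genes with at least 1 TPM in at least 3 of the 12 Control and Control + CsA libraries were tested on log2(TPM + 1) with limma 3.58.1 in R 4.3.3 (lmFit, eBayes with trend), with 1 coefficient for CsA, or 1 per type, beside the cell line block. In the fit with 1 coefficient per type, Type D and Type V shared 1 estimate of the spread of each gene. Tests were two-sided with Benjamini-Hochberg adjustment over the 13125 genes tested. The study's groups come from the labels. The labels state the pairing by line. After removal of group means, the 2 libraries of a line correlated across genes at r = 0.905 to 0.960, and libraries of different lines at -0.661 to 0.700 (30 pairs), and 0 columns were identical. A line gave 1 library per treatment, so p-values rest on how the CsA minus Control difference varies from line to line. Tested on simulated data with 200 of 13125 genes changed (3 draws, all 6 lines), the fit recovered 71% of changes of 0.5 log2 and 92% of 1 log2, with a mean of 4.33 false calls. The simulation drew independent noise for each gene and the same change in every line. It held no change under 0.5 log2, where 558 of the 649 calls lie, so it does not give their error rate.

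Named genes are the 12 largest rises and falls that passed and moved the same way in 6 of 6 lines, the 4 smallest p per list, a fixed set (Trp53, Rb1, Rbl2, Cdkn1a, Mdm2, cyclophilins, Rcan1, Hspa5, Ddit3) and the 4 smallest p per direction for Type D minus Type V. Others were named after their values were seen. The members, the lists and the rule were chosen with earlier results of these data known. Alternatives covered the pseudocount, filters, scaling, the block, the set of libraries, eBayes options and each line left out. Promoters were searched on both strands, with 10209 of the 13125 genes tested matched by symbol. Figures used matplotlib 3.10.9 in Python 3.11.15.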

Additional observations from a re-analysis of the deposited data

Results flagged for a closer look

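In 12 of 186 sets of 6 line differences (named genes and list medians), 1 line stood apart from the other 5 by more of the range than Dixon's 95% critical value allows. Chance gives about 9 such sets among 186 independent, unselected ones. Many of these sets were chosen for a small p or a shared direction, and list medians share genes with them. The number 9 is therefore only a rough guide. Line 4711-1 stood apart for Egr1 (-0.79 log2, others -0.26 to -0.03), Fdft1 (-0.48, others -0.27 to -0.15), Col6a2 (-1.05, others -0.40 to -0.09) and Trp53 (0.40, others -0.14 to 0.05). Line 4711-11 stood apart for Tgfbr2 (0.75, others 0.23 to 0.42) and Krt18 (-0.67, others -0.25 to -0.11). Line 4716-11 stood apart for Pkm (0.049, others -0.38 to -0.23), Abcb8 (0.27, others 0.04 to 0.12) and Hexa (0.049, others 0.40 to 0.54). Line 4711-18 stood apart for Abcd4 (-0.66, others -0.28 to -0.13) and Map1lc3b (0.0028, others 0.16 to 0.24), and line 4716-14 for Tmem258 (0.52, others 0.24 to 0.30).

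In 3 further sets all Type D lines moved one way and all Type V lines the other. Random signs of 6 lines give this split with a probability of 0.03125 per set, a larger share than 3 of 186. The sets are not random draws, so this comparison is not a test. Cadm1 was named for its small p for Type D minus Type V, so its split was selected. Ppie averaged 0.07 log2 in Type D and -0.13 log2 in Type V, a difference of 0.20 log2. Cadm1, a cell adhesion molecule, averaged -0.20 and 0.33 log2, a difference of -0.53 log2. The median of mitochondrial aminoacyl-tRNA synthetases averaged 0.03 and -0.08 log2, a difference of 0.12 log2. In limma the test of the difference gave adjusted p of 0.83 for Ppie and 0.30 for Cadm1, and the difference of the list median was not tested.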

How the results depend on the processing

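No named gene that passed changed direction under any alternative run, and of 493 list medians 489 moved by less than 1 SD of the list's 6 line medians and 4 by more, 2 of those with a change of sign. Every count rested on the cell line block. With no replicate block 0 genes passed in limma over all 6 lines (131 at an unadjusted p under 0.05), 0 at the threshold of the study, in Type D or in Type V, and 0 ER chaperone, ATF4, mitosis, DNA replication or cholesterol genes. With no filter on low TPM 238 genes passed, 4 at the threshold of the study, 46 in Type D, 0 in Type V, 4 ATF4, 10 mitosis, 6 DNA replication and 1 cholesterol gene. A fit of all 24 libraries gave 33 genes, 1 at the threshold of the study, 2 in Type D, 0 in Type V, 4 ER chaperone, 1 ATF4, 0 mitosis, 0 DNA replication and 0 cholesterol genes. Without the variance trend 205 genes passed, 4 at the threshold of the study, 58 in Type D, 0 in Type V, 5 ATF4, 8 mitosis, 2 DNA replication and 0 cholesterol genes. The 3 lines named 4711 alone gave 81 genes, 19 at the threshold of the study, 10 ER chaperone, 0 mitosis, 1 DNA replication and 0 cholesterol genes. The 3 lines named 4716 alone gave 0 genes in limma (1946 at an unadjusted p under 0.05), and so 0 at the threshold of the study or in any list. A pseudocount of 0.1 gave 18 genes at the threshold of the study and 13 in Type V. A TPM minimum of 5 gave 45 genes in Type V and a robust fit 48. For Type D minus Type V 1 gene passed with a TPM minimum of 5, quantile normalization, median-ratio scaling or a robust fit. Median-ratio scaling gave 4 cholesterol genes.

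Without 1 line at a time, the counts ran from 185 to 409 over all lines, 6 to 13 at the threshold of the study, 45 to 168 in Type D, 0 to 40 in Type V and 0 to 3 for Type D minus Type V. The list counts ran from 11 to 21 (ER chaperone), 4 to 15 (ATF4), 9 to 19 (mitosis), 3 to 9 (DNA replication) and 0 to 6 (cholesterol). Apart from the block itself and the fewer samples or other genes tested, the cause of these shifts was not tested. Read depth is unknown, so no counting error is given.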

Other observations

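Besides Chac1 and Mthfd2, the genes with the smallest unadjusted p for Type D minus Type V lay outside the lists. None of the 6 passed in limma. Tff2, a secreted mucosal peptide, differed by 1.78 log2 with CsA in Type D and by 0.14 log2 in Type V (adjusted p = 0.23 for the difference). Reep6, a membrane-shaping protein of the ER, differed by 1.02 and 0.00 log2 (adjusted p = 0.23). Nid1, a basement membrane protein, differed by -1.13 and -0.05 log2 and Pbxip1 by -1.37 and -0.39 log2 (adjusted p = 0.28 for both). The short RNA Mir697 and Cadm1 had adjusted p of 0.28 and 0.30 in limma.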
